A study of Mus musculus with 18 samples.

Results

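Vitamin A acts in skin through a short chain of proteins, and 9 of its genes were followed here in RNA-seq of mouse epidermal cells with or without Zfp36. They are Stra6, Dhrs3, Aldh1a2, Aldh1a3, Cyp26b1, Crabp1, Crabp2, Rarg and Rxra, which are 9 of the 52636 genes in the count table. They were taken by symbol from a list chosen by measured values of these data, since Crabp2 had been seen to be higher in control tumors than in control skin. Differences between fl/fl tumors and fl/fl skin are therefore given as descriptions. Where genes called in them are counted, the count stands beside the share of all genes and nothing is read from it.

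Retinol, the circulating form of vitamin A, enters cells through the membrane protein STRA6. Retinol dehydrogenases oxidize it to retinal, and DHRS3 reduces retinal back to retinol. The ALDH1A enzymes turn retinal into retinoic acid, the active hormone, and the CYP26 enzymes break retinoic acid down. CRABP2 carries retinoic acid to the nucleus, where retinoic acid receptors (RAR) paired with retinoid X receptors (RXR) bind DNA and change transcription. In epidermis the main pair is RARγ with RXRα. Retinoids are known for their effects on keratinocyte differentiation, hair follicles and sebaceous glands, and retinoic acid is a classical inhibitor of chemically induced mouse papillomas.

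The groups came from mice on a C57BL/6 background whose Zfp36 alleles were flanked by loxP sites (labels: Zfp36 fl/fl) and from littermates that also carried K14-Cre (labels: Zfp36 ΔK14, called ΔEP here). K14-Cre is driven by a keratin 14 promoter, so that the gene is lost in basal keratinocytes and in all cells that descend from them. Tristetraprolin (TTP), the product of Zfp36, binds AU-rich elements and speeds the decay of the mRNAs that hold them. For each genotype there was skin after a mock treatment (mock), skin without tumors that lay next to papillomas after DMBA and TPA (treated), and the papillomas (tumors). DMBA mutates DNA, and the phorbol ester TPA then drives mutated cells to grow. The paper describes cells sorted for EpCAM and against CD45, CD140a and CD31, whereas the labels name whole skin as the source and call the treated samples tumoral keratinocytes. Age and sex are not given in the labels. Each of the 6 groups had 3 libraries, except mock ΔEP with 2, because the column of replicate 3 repeated that of replicate 2. Nothing in the labels says that the libraries of a group came from separate mice, so p-values measure the spread between libraries, which may be technical.

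The 17 libraries held 2808550 to 9617985 counts. Levels are CPM (counts scaled to the same nominal library total) on TMM-scaled library sizes, where 3 counts correspond to 0.289 to 1.5 CPM depending on the library. Zfp36 was 15.9 to 17.5-fold lower in ΔEP than in fl/fl libraries over the 3 stages, with no overlap in any stage. The difference passed the test in treated skin and tumors, not in mock skin (edgeR adjusted p = 1). Basal keratins were abundant everywhere (Krt5 1422 to 12099 CPM), while the 7 fibroblast genes summed to between 30.3 and 1673 CPM and the 6 leukocyte genes to between 7.63 and 173 CPM, most of it Cd74. Several libraries stood apart. Mock replicate 1 of each genotype held inner root sheath keratins that the other mock libraries lacked (Krt25 at 449 and 637 CPM, against at most 1.8 CPM). Fl/fl tumors 2 and 3 held 4546 and 8027 CPM summed over 6 sebaceous gland genes, against 403 CPM in fl/fl tumor 1, which was also the shallowest library. Summed over 6 keratinocyte genes, fl/fl tumor 1 held 31031 CPM, against 9387 and 9208 CPM in fl/fl tumors 2 and 3. Keratinocyte genes were low in mock replicate 1 of each genotype (3193 and 3294 CPM), melanocyte genes were high in the same libraries and in treated ΔEP replicate 1 (364 CPM), and treated ΔEP replicate 3 had the highest leukocyte and suprabasal sums.

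Of the 7 genes tested, 3 changed between treated skin and tumors in ΔEP mice, where 26.0% of all genes were called, and 2 between mock skin and tumors, where 14.3% were. Crabp2 and Cyp26b1, which carry and degrade retinoic acid, were higher in ΔEP tumors than in ΔEP treated skin, and Dhrs3, which turns retinal back to retinol, was lower. Crabp2 reached 77.1 ± 1.53 CPM in ΔEP tumors (SD, n = 3) and 89.7 ± 10.9 CPM in fl/fl tumors (n = 3), from 5.53 ± 2.85 CPM in ΔEP mock skin (n = 2) and 6.01 ± 1.87 CPM in fl/fl mock skin (n = 3). Between genotypes none of the 8, 8 and 7 genes tested in mock skin, treated skin and tumors passed, where 0%, 0.00616% and 0.0284% of all genes did. Stra6 and Aldh1a3 ranged from near 0 to 85 CPM among the mock libraries. Aldh1a2 was at or below 3 counts in 11 of 17 libraries, and Crabp1 was low throughout.

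TTP recognizes the heptamer TATTTAT, and the sites in the members' 3′ untranslated regions are shown because the ΔEP mice lack this protein. The longest annotated 3′ untranslated regions of 5 of the 9 genes held the heptamer on the transcribed strand, against 27.6% of the 20941 genes with such a region. Rarg held 2 overlapping copies and Crabp2, Aldh1a2, Aldh1a3 and Cyp26b1 held 1 each, and Crabp1, Stra6, Dhrs3 and Rxra held none. Each line below gives the GRCm38 position and strand, with the heptamer in capitals.
Crabp2, chr3:87953324-87953352, plus strand: gtgatttagaaTATTTATtggttaatttt
Aldh1a2, chr9:71295977-71296005, plus strand: ttttagttttcTATTTATaacctgcctgt
Aldh1a3, chr7:66391110-66391138, minus strand: aaatgttacatTATTTATaattggtatca
Cyp26b1, chr6:84573516-84573544, minus strand: cccctgtcccaTATTTATtcactgacctt
Rarg, chr15:102235188-102235216, minus strand: gaggaagcctcTATTTATttattagcttt
Rarg, chr15:102235184-102235212, minus strand: aagcctctattTATTTATtagcttttgtt
A heptamer is a match of letters and does not show binding.

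RefSeq promoter windows (GRCm38.p6, 250 bases before to 50 after the start) were found for 7 of the 9 genes, with 14 windows in all, and none was printed for Crabp2 and Aldh1a3. They were searched on both strands for the retinoic acid receptor half-site AGGTCA and for the variants AGTTCA, then GGGTCA, then GGTTCA, as well as for the GC box GGGCGG and for TATAAA. None of the half-sites overlapped another motif in these windows, while copies of GGGCGG overlapped each other in 1 window each of Stra6 and Rarg. A half-site lay in 1 window each of Stra6, Rarg and Rxra, so in 3 of 14 windows, and 43.7% of all 32851 windows held one. No member window held 2 half-sites in direct repeat with a spacer of 1, 2 or 5 bases, which 0.222%, 0.268% and 0.0974% of all windows did. The windows of Cyp26b1 and Dhrs3 are printed because these genes moved in opposite directions in ΔEP tumors. The Cyp26b1 window held 1 TATAAA and 3 copies of GGGCGG (in capitals, the reverse strand as CCGCCC), motifs that 13.6% and 35.7% of all windows held. The Dhrs3 window shown, the most upstream of 3, held none of the motifs.
Cyp26b1, chr6:84593761-84594060, minus strand: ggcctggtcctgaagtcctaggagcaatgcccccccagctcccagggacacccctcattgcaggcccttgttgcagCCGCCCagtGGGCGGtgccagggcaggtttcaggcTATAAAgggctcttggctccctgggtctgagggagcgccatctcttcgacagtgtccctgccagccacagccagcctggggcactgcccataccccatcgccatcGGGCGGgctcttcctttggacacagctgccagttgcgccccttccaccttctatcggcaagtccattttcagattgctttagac
Dhrs3, chr4:144892577-144892876, plus strand: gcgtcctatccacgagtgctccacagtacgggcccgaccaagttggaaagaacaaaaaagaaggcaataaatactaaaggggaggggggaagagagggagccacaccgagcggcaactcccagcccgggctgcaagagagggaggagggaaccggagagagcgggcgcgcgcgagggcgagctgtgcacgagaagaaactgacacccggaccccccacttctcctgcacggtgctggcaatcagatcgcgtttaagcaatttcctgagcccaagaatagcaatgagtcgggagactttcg
A match in such a window is not a site of action.

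**Figure D1:**
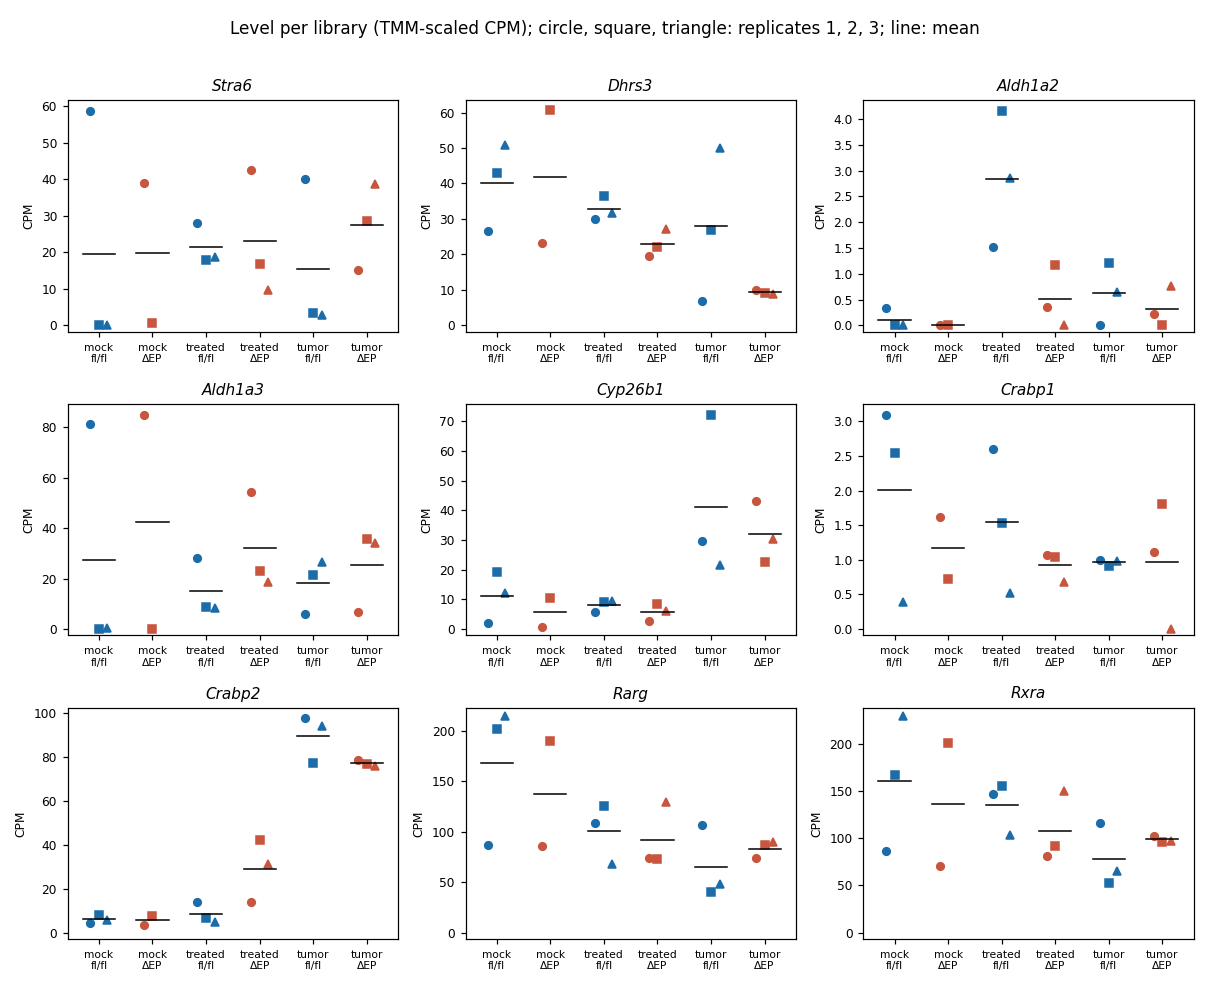
Level of each of the 9 genes in every library, in TMM-scaled CPM on linear axes, by group on the x axis. Circles, squares and triangles stand for replicates 1, 2 and 3, blue for fl/fl, red for ΔEP, and the line for the group mean. Crabp2 sits at 75.8 to 97.7 CPM in all 6 tumors, above every skin library.

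Per kilobase of exon, which allows levels of different genes to be compared, the order of the members differed between ΔEP mock skin and ΔEP tumors. In ΔEP mock skin the receptors led, with Rarg at 32.3 and Rxra at 24.9 CPM per kb, followed by Dhrs3 at 14.3, Aldh1a3 at 9.2, Crabp2 at 4.18, Stra6 at 3.39, Crabp1 at 1.46 and Cyp26b1 at 1.05 CPM per kb, with Aldh1a2 at 0 counts. With 2 libraries, the SD of each of these exceeded its distance from the next, and the means of Aldh1a3 and Stra6 rested on replicate 1. In ΔEP tumors Crabp2 led at 58.3 CPM per kb, ahead of Rarg at 19.5 and Rxra at 18.1, which differed by less than the SD of Rarg. Next came Cyp26b1 at 5.98, Aldh1a3 at 5.54, Stra6 at 4.72 and Dhrs3 at 3.17 CPM per kb, where each of the first 3 differed from the next by less than its SD. In fl/fl tumors Crabp2 also led, at 67.8 CPM per kb, while Dhrs3 at 9.56 and Cyp26b1 at 7.68 CPM per kb differed by less than either SD.

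Uptake is represented by Stra6 (ENSMUSG00000032327, chr9:58063788-58153996), the receptor for retinol bound to its plasma carrier. Its level in mock skin was 58.6, 0.196 and 0.0964 CPM in the fl/fl libraries and 38.8 and 0.718 CPM in the ΔEP libraries, so that mock replicate 1 of each genotype stood far above the others. Treated skin held 28.1, 17.9 and 18.6 CPM in fl/fl and 42.5, 16.9 and 9.78 CPM in ΔEP, which overlapped the high mock libraries and lay above the low ones. Tumors held 40.1, 3.5 and 2.94 CPM in fl/fl and 15.2, 28.6 and 38.7 CPM in ΔEP. Fl/fl tumor 1 was the highest tumor and the other fl/fl tumors were the lowest. No contrast of Stra6 was called in the main edgeR fits of all libraries (the ΔEP tumors differed from ΔEP mock skin by 0.35 log2, SE 1.07, edgeR adjusted p = 0.844). With no count filter it was called between ΔEP and fl/fl tumors (edgeR adjusted p = 0.0477), in a fit that called 4.27% of all genes. Without fl/fl tumor 1, Stra6 was 2.95 log2 higher in ΔEP than in fl/fl tumors (SE 0.43, edgeR adjusted p = 0.00133). That fit called 16.9% of all genes. The fl/fl tumors kept for it are among the libraries behind the choice of genes and are those with the sebaceous genes. Their keratinocyte sums were also lower than that of fl/fl tumor 1.

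Synthesis of retinoic acid is represented by Aldh1a3 and Aldh1a2. Aldh1a3 (ENSMUSG00000015134, chr7:66390890-66427517) varied in mock skin as Stra6 did, with 81.2, 0.196 and 0.386 CPM in fl/fl and 85 and 0 CPM in ΔEP. Treated skin held 28.1, 8.74 and 8.2 CPM in fl/fl and 54.5, 23.1 and 18.5 CPM in ΔEP, and the groups overlapped. Tumors held 6.01, 21.6 and 26.8 CPM in fl/fl and 6.92, 35.9 and 33.9 CPM in ΔEP, where replicate 1 was the lowest of each group. In mock skin, Stra6 and Aldh1a3 were high in the libraries that held the inner root sheath keratins Krt25 and Krt71, and at or below 0.718 CPM in those that held almost none. In tumors Krt25 did not exceed 14 CPM, while Stra6 reached 40.1 CPM and Aldh1a3 35.9 CPM. The sum over all 7 hair follicle genes, all of them counted in every group, ran from 1603 to 2916 CPM over the libraries. In mock skin this sum was 1915, 2019 and 2146 CPM in fl/fl and 2110 and 2916 CPM in ΔEP. It was thus lowest in replicate 1 of each genotype, although the list includes Krt25 and Krt71. The part of root sheath cells in the mock values was not tested.

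**Figure D2:**
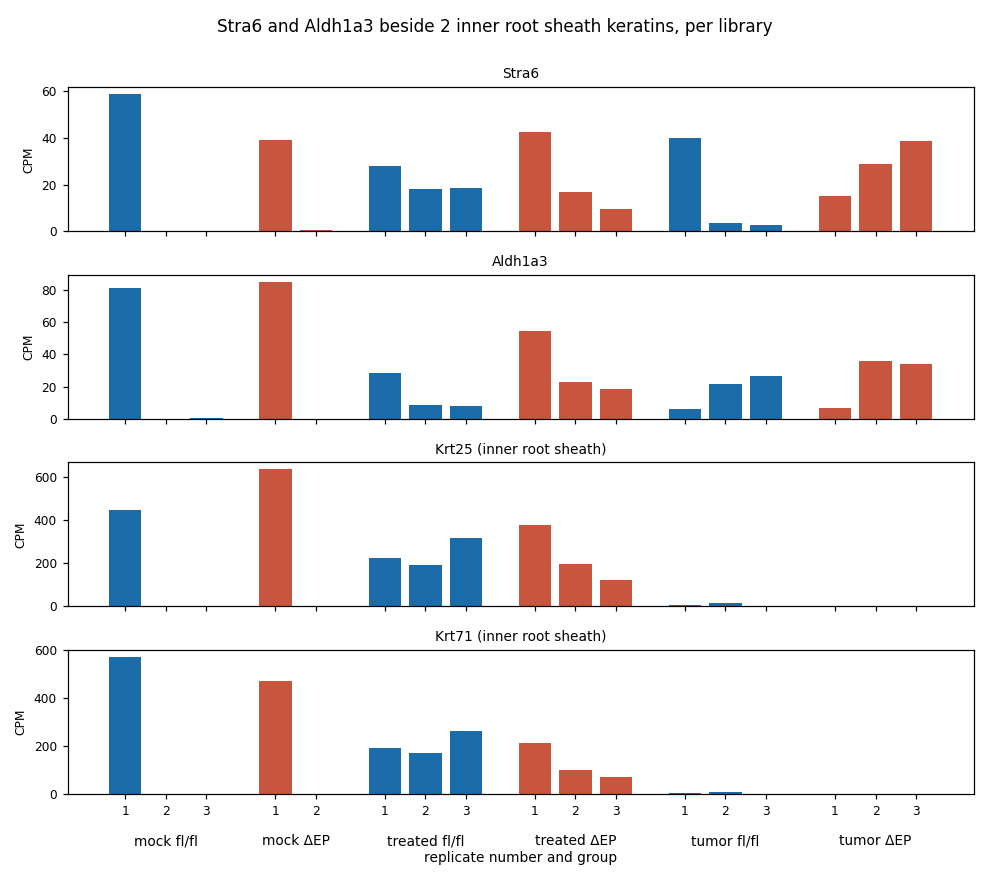
Stra6 and Aldh1a3 beside the inner root sheath keratins Krt25 and Krt71, as bars of CPM for each library, with replicate numbers and groups on the x axis (blue fl/fl, red ΔEP, linear axes from 0). All 4 genes are high in mock replicate 1 of both genotypes and near 0 in the other mock libraries, and in tumors the keratins are near 0 while Stra6 and Aldh1a3 are not.

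Aldh1a2 (ENSMUSG00000013584, chr9:71215789-71296243), a further retinal dehydrogenase among the members, held at most 3 counts in 11 of 17 libraries. It was best seen in fl/fl treated skin, with 1.51, 4.15 and 2.86 CPM, against 0.358, 1.17 and 0 CPM in ΔEP treated skin. The treated groups did not overlap, yet the difference of -2.29 log2 (SE 0.79) did not pass the test (edgeR adjusted p = 0.897). All fl/fl mock libraries held at most 3 counts, and fl/fl treated skin was at least 7.06-fold higher than a mock level of 3 counts per library (edgeR adjusted p = 0.475). DESeq2 and edgeR's exact test called this difference, with adjusted p of 0.0127 and 0.000266. Aldh1a2 passed the count filter of these fits only through fl/fl treated skin, with 14, 19 and 22 counts. The tests therefore used the same values that admitted the gene, and nothing is read from these p-values.

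Dhrs3 (ENSMUSG00000066026, chr4:144892827-144928209), a retinal reductase that lowers the supply of retinal and is itself a known retinoic acid target, was lowest in ΔEP tumors. Mock skin held 26.5, 43 and 50.9 CPM in fl/fl and 23.2 and 60.7 CPM in ΔEP. Treated skin held 29.97, 36.5 and 31.6 CPM in fl/fl and 19.5, 22.2 and 27.3 CPM in ΔEP, so that every fl/fl treated library lay above every ΔEP one. Tumors held 7.01, 26.9 and 49.96 CPM in fl/fl and 10.04, 9.05 and 8.72 CPM in ΔEP. The 3 ΔEP tumors lay close together and below all skin libraries of both genotypes, and fl/fl tumor 1 was lower still, while the other fl/fl tumors were in the range of skin. In bulk samples, fewer cells of a type and less RNA per cell cannot be told apart.

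In ΔEP mice Dhrs3 fell by 1.40 log2 from treated skin to tumors (SE 0.22, edgeR adjusted p = 0.00219), a 2.65-fold difference that was called without any one of the 6 libraries but not in 1 fit of all libraries (adjusted p = 0.0649). From mock skin it fell by 2.26 log2 (SE 0.43, edgeR adjusted p = 0.0231). That call was lost without any one of the 3 tumors, with adjusted p up to 0.104. Between genotypes the difference in treated skin was -0.53 log2 (SE 0.18, edgeR adjusted p = 0.897). In tumors, which for fl/fl are the libraries behind the choice of genes, it was -1.76 log2 (SE 0.58, edgeR adjusted p = 0.26), and the ranges overlapped only through fl/fl tumor 1. Without that library, Dhrs3 was -2.14 log2 in ΔEP relative to fl/fl tumors (SE 0.29, edgeR adjusted p = 0.000925), in a fit that called 16.9% of all genes. The fl/fl tumors kept for that fit are those with the sebaceous genes. They also had lower keratinocyte sums than fl/fl tumor 1 (9387 and 9208 against 31031 CPM). Scd1, a fatty acid desaturase abundant in sebaceous glands, was at 196, 3199 and 6056 CPM in the fl/fl tumors and 197, 128 and 206 CPM in the ΔEP tumors, in the order in which Dhrs3 was given. All 6 sebaceous genes were counted in every group. Their sum was 350.4 to 481 CPM in ΔEP tumors, 517 to 704 CPM in ΔEP skin and 451 to 837 CPM in fl/fl skin. Each ΔEP tumor thus lay below every ΔEP skin library in this sum. The part of sebaceous cells and of keratinocytes in the tumor values was not tested.

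**Figure D3:**
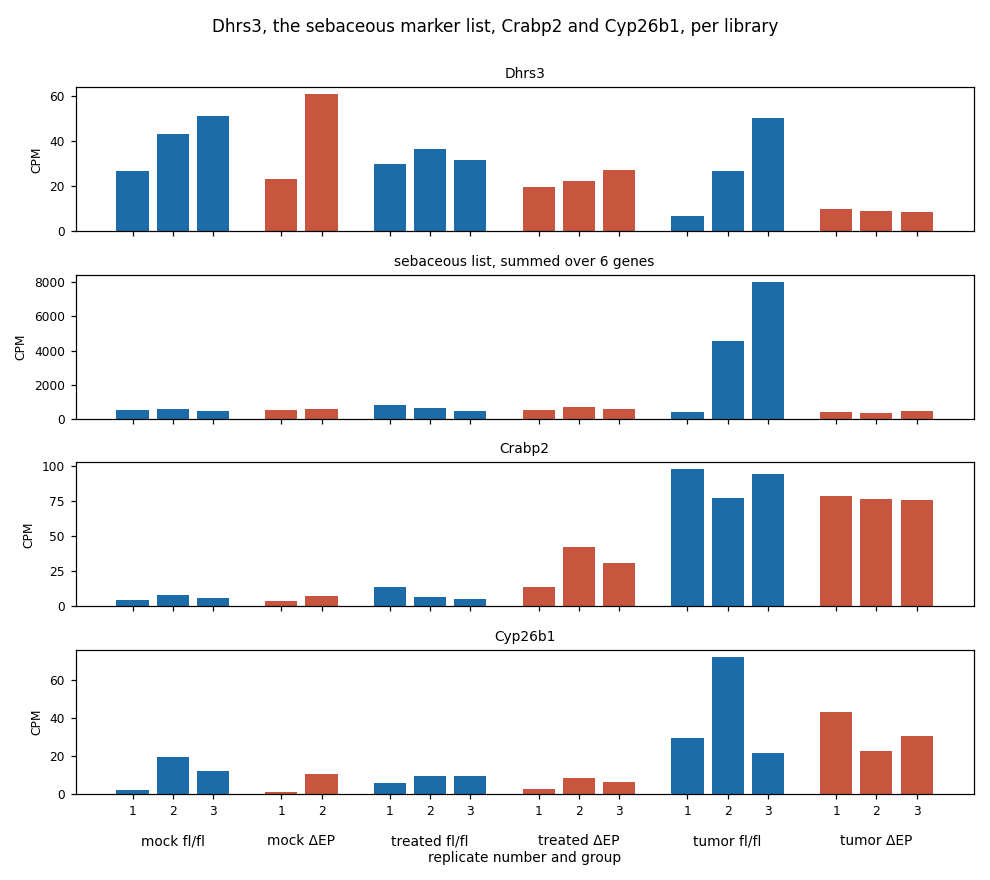
Dhrs3, the summed sebaceous marker genes, Crabp2 and Cyp26b1 as bars of CPM for each library, with replicate numbers and groups on the x axis (blue fl/fl, red ΔEP, linear axes from 0). Dhrs3 is at 8.72 to 10.04 CPM in the ΔEP tumors, and the sebaceous sum is 4546 and 8027 CPM in fl/fl tumors 2 and 3 and at most 837 CPM in the others.

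Cyp26b1 (ENSMUSG00000063415, chr6:84571414-84593908), a cytochrome P450 that inactivates retinoic acid, was higher in tumors than in skin. Mock skin held 1.88, 19.2 and 12.1 CPM in fl/fl and 0.809 and 10.4 CPM in ΔEP, with replicate 1 of each genotype the lowest. Treated skin held 5.63, 9.18 and 9.37 CPM in fl/fl and 2.68, 8.31 and 6.07 CPM in ΔEP. Tumors held 29.5, 72.3 and 21.6 CPM in fl/fl and 43.1, 22.6 and 30.3 CPM in ΔEP, and each of the 6 lay above all 11 skin libraries. This separation depended on the TMM scaling. In CPM on total counts without TMM, fl/fl tumor 3 (18.8) and ΔEP tumor 2 (18.0) lay below mock fl/fl replicate 2 (20.4). In ΔEP mice the difference between tumors and treated skin was 2.36 log2 (SE 0.41, 5.15-fold, edgeR adjusted p = 0.00352), and it was called without any one of the libraries. Against ΔEP mock skin it was 2.48 log2 (SE 0.85) and did not pass (edgeR adjusted p = 0.0935). It was 1.58 log2 without mock ΔEP replicate 1 and 5.25 log2 without mock ΔEP replicate 2. Each of these sizes rests on 1 mock library, which gives no spread of its own. DESeq2 and edgeR's exact test on all libraries called the difference (adjusted p of 0.0192 and 0.0408). In fl/fl mice, as a description, tumors lay 2.34 log2 above treated skin. Between ΔEP and fl/fl tumors the difference was -0.52 log2 (SE 0.46, edgeR adjusted p = 0.639).

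Crabp2 (ENSMUSG00000004885, chr3:87948666-87953376), the carrier that delivers retinoic acid to its receptors, separated tumors from skin. Mock skin held 4.31, 8.02 and 5.69 CPM in fl/fl and 3.51 and 7.54 CPM in ΔEP. Treated skin held 13.8, 6.56 and 4.95 CPM in fl/fl and 14.1, 42.2 and 31.2 CPM in ΔEP, and the lowest ΔEP library was just above the highest fl/fl library. In CPM on total counts without TMM the groups overlapped, with 16.5 in treated ΔEP replicate 1 and 17.3 in treated fl/fl replicate 1. Tumors held 97.7, 77.3 and 94 CPM in fl/fl and 78.8, 76.6 and 75.8 CPM in ΔEP, with overlapping ranges. In fl/fl mice, where the rise chose the gene, tumors were 3.88 log2 above mock skin and 3.35 log2 above treated skin.

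In ΔEP the same step was tested in libraries other than those named in the choice, although the members were chosen with earlier results of all these data known. Crabp2 rose by 3.73 log2 from ΔEP mock skin to ΔEP tumors (SE 0.39, 13.3-fold, edgeR adjusted p = 0.00647). The adjusted p was 0.0566 without ΔEP tumor 2, at a similar size (3.72 log2), and the call held without each of the other 4 libraries. From ΔEP treated skin it rose by 1.29 log2 (SE 0.35, 2.44-fold, edgeR adjusted p = 0.0203). Here the fold dropped below 2 without treated ΔEP replicate 1 (0.97 log2, adjusted p = 0.0103), and the adjusted p was 0.0564 without ΔEP tumor 3. Both comparisons share the ΔEP tumors. The 6 keratinocyte genes summed to 24364 to 25374 CPM in these tumors, 3416 to 12073 CPM in ΔEP treated skin and 3294 to 14299.8 CPM in ΔEP mock skin. The 7 fibroblast genes summed to 30.3 to 386, 431 to 953 and 993 to 1033 CPM in the same order, and the 6 leukocyte genes to 57.4 to 85, 9.47 to 173 and 8.09 to 21.2 CPM, with Cd207 at 0 in the tumors and Ptprc and Cd3e at 0 in mock skin. The 5 melanocyte genes summed to 15.9 to 38.2, 51.3 to 364 and 41 to 278 CPM in that order. The 5 suprabasal genes summed to 1479 to 2524, 1682 to 9500 and 535 to 7260 CPM. The keratinocyte, fibroblast, melanocyte and sebaceous sums did not overlap between ΔEP tumors and ΔEP skin, while the suprabasal sums did. The leukocyte sums did not overlap between ΔEP tumors and ΔEP mock skin. They overlapped with ΔEP treated skin only through treated ΔEP replicate 3 (173 CPM). The part of these lists in the changes of Crabp2, Cyp26b1 and Dhrs3 was not tested.

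Crabp2 in treated skin was 1.75 log2 higher in ΔEP than in fl/fl (SE 0.48, 3.36-fold, unadjusted p = 0.00615 and adjusted p = 0.866 by edgeR). It did not pass the test without any one of the 6 libraries either (adjusted p from 0.339). With no count filter Crabp2 was called here (edgeR adjusted p = 8.65e-07), in a fit that called 0.646% of all genes. The ΔEP treated libraries were 2.41 log2 above ΔEP mock skin (SE 0.61, edgeR adjusted p = 0.701), against 0.53 log2 in fl/fl (SE 0.46, edgeR adjusted p = 0.922). DESeq2 called the former, with an adjusted p of 0.0479. The step from treated skin to tumor was 2.03 log2 smaller in ΔEP than in fl/fl (SE 0.54). That contrast did not pass in edgeR (adjusted p = 0.207), while DESeq2 gave an adjusted p of 0.0343. It contains the fl/fl rise that chose the gene, so its size is a description and nothing is read from either p-value. The leukocyte genes summed to 9.47, 16.5 and 173 CPM in the ΔEP treated libraries and 26.7, 18.6 and 8.07 CPM in the fl/fl treated libraries, and their part in the Crabp2 values was not tested.

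Crabp1 (ENSMUSG00000032291, chr9:54764748-54773110), a cytosolic binding protein of the same family, never exceeded 3.1 CPM. It held 132 counts over all 17 libraries and entered 4 of the 12 fits. No difference in Crabp1 was detectable at this depth.

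The receptors were the most even of the members, with 5.29 and 4.39 times between their lowest and highest library. Rarg (ENSMUSG00000001288, chr15:102234938-102257517), the main retinoic acid receptor of epidermis, was at 86.6, 202 and 214 CPM in fl/fl mock skin, 109, 125 and 67.8 CPM in fl/fl treated skin and 107, 40.5 and 48.3 CPM in fl/fl tumors. In ΔEP it was at 85.5 and 189.7, then 73.8, 72.8 and 129, then 73.9, 86.5 and 89.3 CPM in the same stages. Replicate 1 of mock skin was the lowest mock library in both genotypes. Rxra (ENSMUSG00000015846, chr2:27676440-27762957), its partner, was at 86.4, 166 and 229 CPM in fl/fl mock skin, 147, 155 and 104 CPM in fl/fl treated skin and 116, 52.2 and 65.6 CPM in fl/fl tumors. In ΔEP it was at 70.4 and 201, then 81.3, 91.3 and 150.0, then 103, 96 and 97.3 CPM. The 2 receptors moved together over the 17 libraries (Pearson r = 0.93 on log2 CPM, a description over libraries that share depth and scaling). From ΔEP mock skin to ΔEP tumors Rarg differed by -0.82 log2 (SE 0.35, edgeR adjusted p = 0.155) and Rxra by -0.55 log2 (SE 0.42, edgeR adjusted p = 0.397). Without mock ΔEP replicate 1, all 7 members tested were called in this comparison, against 28.1% of all genes, with Rarg and Rxra down by 1.22 and 1.06 log2 and Stra6 and Aldh1a3 up. That fit rests on 1 mock library, which is assumed to vary as the tumors do.

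**Figure D4:**
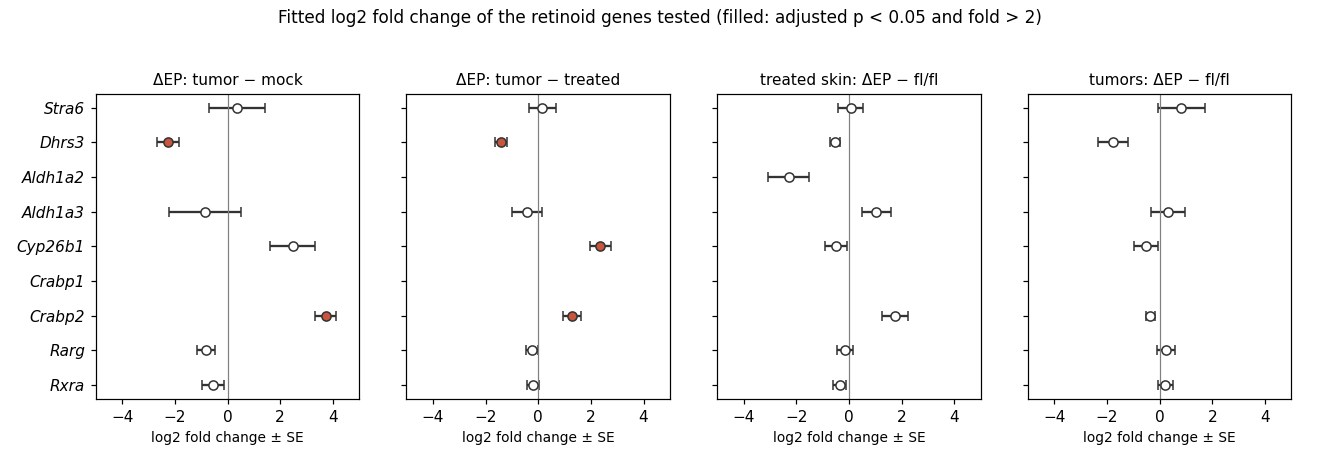
Fitted log2 fold change of each member tested, with its standard error as the bar, in 4 comparisons (edgeR, x axis in log2). Filled points are the called genes, with a fold above 2 and an adjusted p under 0.05. Crabp2 and Dhrs3 are filled on opposite sides in both ΔEP tumor comparisons and Cyp26b1 is filled against treated skin, while no point is filled between genotypes.

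Counted together, 2 of the 7 members tested were called between ΔEP tumors and ΔEP mock skin (1 up, 1 down), against 14.3% of all genes tested. Between ΔEP tumors and ΔEP treated skin 3 of 7 were called (2 up, 1 down), against 26.0%. The median change of the 7 was -0.21 log2 in the latter, where that of all genes was -0.03. In fl/fl mice, whose tumors chose the list, the counts describe the choice and are no evidence about the members. They were 1 of 7 between tumors and mock skin, where 4.11% of all genes were called, and 2 of 7 between tumors and treated skin, where 18.0% were. The quasi-likelihood test of edgeR called 0 members between genotypes in mock skin, treated skin and tumors, where 0%, 0.00616% and 0.0284% of all genes were called, and at an unadjusted p under 0.05 there were 0 of 8, 3 of 8 and 1 of 7, where 1.59%, 5.55% and 14% of all genes were. DESeq2 and edgeR's exact test also called 0 members in each of these, where DESeq2 called 0.0188%, 0.222% and 2.6% of all genes. The quasi-likelihood test called 0 members between treated and mock skin in either genotype, where 0% of all genes were called, with 1 member at an unadjusted p under 0.05 in each genotype, where 4.8% of all genes were in ΔEP and 5.5% in fl/fl. DESeq2 called Crabp2 in ΔEP, where it called 0.447% of all genes, and Aldh1a2 in fl/fl, where it called 0.711%. The exact test called 0 members in ΔEP and Aldh1a2 in fl/fl, against 0.334% and 0.632% of all genes. Aldh1a2 entered these fl/fl fits only through treated skin, where it was high. The 3 contrasts of genotype with stage called 0 members, against 0%, 0% and 0.0118% of all genes, with 1, 0 and 1 at an unadjusted p under 0.05, where 1.45%, 8.18% and 13.2% of all genes were. DESeq2 called 0, 0 and 1, against 0%, 0.178% and 1.35% of all genes. Leaving out mock fl/fl replicate 1 led to calls of Stra6, Aldh1a3, Aldh1a2 and Rarg between fl/fl treated and mock skin, in a fit that called 15.1% of all genes. Leaving out fl/fl tumor 1 led to calls of Dhrs3 and Stra6 in the contrast of genotype with the step from treated skin to tumor, against 7.53% of all genes.

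The pathway holds 48 further genes that were listed by role beside the members. Between ΔEP tumors and mock skin, 3 of the 31 tested were called (2 up, 1 down), and between ΔEP tumors and treated skin 7 of 32 (4 up, 3 down), against the same 14.3% and 26.0% of all genes. Their median changes were -0.34 and -0.31 log2, where those of all genes were -0.06 and -0.03. By role, 3 of the 5 receptors and carriers tested were called between ΔEP tumors and treated skin (2 up, 1 down), 1 of 4 uptake and storage genes, 1 of 13 enzymes of the retinol to retinal step, 1 of 6 coregulators, 1 of 3 genes listed as responsive to retinoic acid (median -1.08 log2) and 0 of 1 further enzyme of synthesis and degradation. Rarb and Gprc5a, both counted here, passed the count filter of that fit only through the group where they were high. Nothing is read from their calls.

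Among the receptors, Ppard, a nuclear receptor for fatty acids that also responds to retinoic acid handed over by FABP5, rose in ΔEP tumors. It was at 18.9 and 19.8 CPM in ΔEP mock skin, 18.2, 19.7 and 30.3 CPM in ΔEP treated skin and 69.2, 133 and 152 CPM in ΔEP tumors. The rise from treated skin was 2.28 log2 (SE 0.31, edgeR adjusted p = 0.00145), with 81.1, 69.5 and 52.2 CPM in the fl/fl tumors. Fabp5, the carrier, rose by 1.23 log2 over the same step (SE 0.21, edgeR adjusted p = 0.00319), with 347 to 479 CPM in treated skin and 865 to 1196 CPM in tumors. Rarb, a receptor whose own transcription is induced by retinoic acid, was at 4.65, 7.54 and 2.7 CPM in ΔEP treated skin and 0.893, 0.543 and 0.948 CPM in ΔEP tumors. The difference was -2.75 log2 (SE 0.53, edgeR adjusted p = 0.00526). Rarb passed the count filter of this fit only through treated skin, where it was high. The test therefore used the values that admitted the gene, and nothing is read from this p-value. Rara was at 15.4, 16.8 and 23.1 CPM in ΔEP tumors and 34.1, 20.8 and 22.2 CPM in ΔEP treated skin (-0.57 log2, SE 0.26, edgeR adjusted p = 0.111). Rxrb was at 11.5 to 22.6 CPM in all libraries.

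Gprc5a, a membrane receptor gene named for its induction by retinoic acid, showed the largest change of the called genes of the pathway, with 0.894, 0.909 and 3.54 CPM in ΔEP treated skin and 21.4, 75.7 and 108 CPM in ΔEP tumors. The change was 5.18 log2 (SE 0.70, edgeR adjusted p = 0.00134). Gprc5a passed the count filter of this fit only through the tumors, where it was high. Its size is thus a description, and nothing is read from this p-value. The fl/fl tumors held 32.1, 11.3 and 5.55 CPM. Nrip1, a corepressor of nuclear receptors, rose by 1.07 log2 over the same step (SE 0.20, edgeR adjusted p = 0.00455). Sdr16c6, a short-chain dehydrogenase, fell by 3.88 log2 (SE 0.61, edgeR adjusted p = 0.0023), from 27, 109 and 163 CPM to 8.93, 7.79 and 4.93 CPM. In fl/fl tumors it was at 1.5, 137 and 158 CPM, high in the libraries with the sebaceous genes. Rdh10, the main retinol dehydrogenase of embryonic tissue, was at 19.6, 32 and 40.4 CPM in ΔEP tumors and 15.4, 16.5 and 12 CPM in ΔEP treated skin, a difference of 0.96 log2 that stayed under the fold of 2 (SE 0.28, edgeR adjusted p = 0.0281). Aldh1a1, another retinal dehydrogenase, was at 1 to 7.82 CPM, and Cyp26a1 did not exceed 0.715 CPM.

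**Figure D5:**
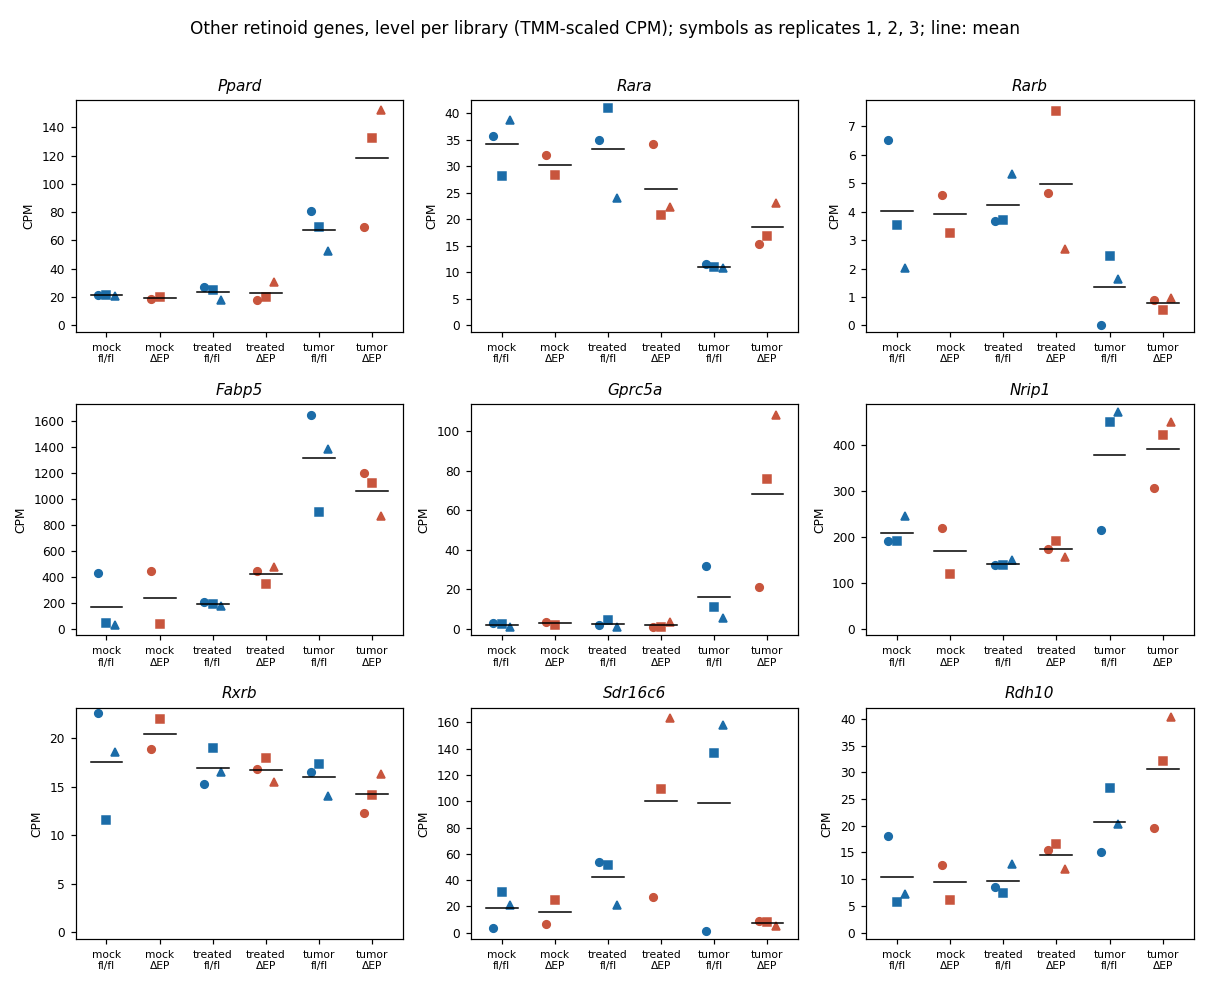
Level of 9 further retinoid genes in every library, in TMM-scaled CPM on linear axes, by group on the x axis, with symbols for replicates 1, 2 and 3, blue for fl/fl, red for ΔEP, and a line for the mean. Ppard and Fabp5 are higher in all 6 tumors than in every skin library, and Sdr16c6 is below 10 CPM in the ΔEP tumors and fl/fl tumor 1.

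The genes whose pattern was most like that of a member were ranked by Pearson r of log2 CPM over the 17 libraries, among 12070 genes with a mean of at least 5 CPM. Nearest to Crabp2 were Sprr1b (0.96), a cornified envelope protein, Aqp9 (0.95), a membrane channel, Cyp7b1 (0.95), an oxysterol hydroxylase, Teddm3 (0.95) and BC117090 (0.95). Cyp26b1 was nearest to Il4ra (0.95), Nlrp10 (0.94), Clock (0.91), Ptprj (0.91) and Epb41l2 (0.91). Dhrs3 was nearest to Arfgap2 (0.95), Gm43362 (0.94), Ncoa7 (0.93), Gm43274 (0.93) and Adamtsl4 (0.92). Rarg was nearest to Fos (0.97), Ttc7 (0.96), Pou3f1 (0.96), Slco3a1 (0.96) and Tbc1d2b (0.95). Among the members, Crabp2 and Cyp26b1 had an r of 0.72, Crabp2 and Dhrs3 of -0.60, and Stra6 and Aldh1a3 of 0.82. These values describe libraries that share stages, depth and scaling, and carry no test.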

How the data were processed

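RNA-seq counts for each gene were analysed as deposited for 17 libraries of mouse epidermal cells. The authors made the counts from reads. The submitters' processing notes name Trimmomatic 0.36, STAR 2.5.3, HTSeq 0.9.1, DESeq2 and mm10 without saying what each did, and whether counting used strand is not given in the sources used here. The table held 1 pair of identical columns, mock ΔEP replicates 2 and 3, which were counted once.

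Each pair of groups was fitted in edgeR 4.0.16 (R 4.3.3) with filterByExpr, TMM scaling and the quasi-likelihood F test, and p-values were adjusted over all genes tested by the Benjamini-Hochberg method. Calls needed a fold above 2 and an adjusted p below 0.05. Contrasts of genotype with stage were fitted over 4 groups. Alternatives were DESeq2 1.42.0, edgeR's exact test, RLE scaling, other count filters, 1 fit of all libraries, a replicate block and leaving out each library. The procedure was also run on simulated counts with the same dispersion for every gene and no library that stood apart. These data differ in both respects, so nothing is read from that run. Libraries held 2808550 to 9617985 counts, and differences near 3 counts per library could not be resolved.

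The 9 members, the other lists and the tests were chosen with earlier results of these data known. Named genes were the members, Zfp36, at most 6 further retinoid genes called per comparison by smallest p, and Rara, Rarb, Rxrb, Aldh1a1, Rdh10 and Cyp26a1, and 1 further gene of this rule is not reported here. Marker genes and the libraries they set apart are named beside the results they touch.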

Additional observations from a re-analysis of the deposited data

How the results depend on the processing

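Groups of 2 or 3 libraries limited the tests, and 1 library often decided how many members were called. Of 1313 log2 fold changes recomputed under an alternative, 1265 kept their side of the threshold, 35 were called only under the alternative, 9 lost their call and 4 called under the alternative reversed. Among the 1265, 112 values called in neither fit changed sign, 91 of them on leaving out a library. In CPM without TMM, on all counts or without ribosomal RNA, 18 of 108 group means of the members moved by more than the group's SD.

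Percentages in brackets are the share of all genes called in the same fit. With no count filter, 3 members were called between genotypes in treated skin, Crabp2, Aldh1a2 and Aldh1a3 (0.646%), and 2 in tumors, Stra6 and Dhrs3 (4.27%). Those fits called 1 between ΔEP treated and mock skin (0.654%) and 4 between fl/fl tumors and mock skin (7.64%). They called 1 in the contrast of genotype with the step from treated skin to tumor (2.76%). DESeq2 called 1 member between ΔEP treated and mock skin (0.447%), 1 between fl/fl treated and mock skin (0.711%) and 1 in that contrast (1.35%). The exact test called 1 between fl/fl treated and mock skin (0.632%). A fit of all libraries called 2 between fl/fl tumors and mock skin, where it called 3205 of 18252 genes. The other alternatives, apart from leaving out a library and the replicate block, left the number of called members within 1.5 times.

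On leaving out 1 library, the number of called members ranged from 0 to 0 between genotypes in mock skin and in treated skin, from 0 to 2 in tumors, from 0 to 0 between ΔEP treated and mock skin, from 0 to 7 between ΔEP tumors and mock skin, from 2 to 3 between ΔEP tumors and treated skin, from 0 to 4 between fl/fl treated and mock skin, from 1 to 5 between fl/fl tumors and mock skin, from 1 to 5 between fl/fl tumors and treated skin, and from 0 to 0, 0 to 0 and 0 to 2 in the contrasts of genotype with stage. The whole fits moved with them. Over all genes the calls ranged, in the same order of comparisons, from 0 to 0, 0 to 12, 0 to 2613, 0 to 0, 101 to 4573, 2823 to 4773, 0 to 2587, 30 to 3277, 1106 to 4138, 0 to 0, 0 to 23 and 0 to 1352. The reversals were Aldh1a3 between ΔEP tumors and mock skin without mock ΔEP replicate 1 (9.85 log2), Aldh1a3 between fl/fl treated and mock skin without mock fl/fl replicate 1 (5.55), and Stra6 and Aldh1a3 between fl/fl tumors and mock skin without mock fl/fl replicate 1 (6.54 and 5.76). The lowest values on leaving out a library were -1.74 and -1.71 for the first 2 of these, and -2.69 and -1.20 for Stra6 and Aldh1a3 in the last comparison. The lone or paired mock libraries left there were near 0 for these genes.

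The main fits did not pair samples by replicate number, and the deviations of equal numbers did not all correlate above 0.1. Between genotypes in mock skin they did. In groups this small the deviations within a group are not independent, so these correlations cannot decide whether replicate numbers pair the samples. Between genotypes the correlations were 0.782 and 0.568 in mock skin, -0.167, -0.125 and -0.546 in treated skin, and 0.138, 0.255 and -0.0708 in tumors. With a replicate block, 1 member was called between ΔEP tumors and mock skin, Crabp2, and Dhrs3 was not (adjusted p = 0.0626). Over all genes the block called 938 between these groups in place of 2144, and 110 in place of 0 between genotypes in mock skin.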
